A study of Homo sapiens with 9 samples.

Results

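A group of 10 receptor tyrosine kinase genes was followed through a block of splicing and the release from it in MDA-MB-231, a line of human triple-negative breast cancer cells. The choice was by gene name, made with earlier results of these data known, from the 60708 gene rows of the count table: EGFR, ERBB2, ERBB3, MET, AXL, IGF1R, INSR, FGFR1, DDR1 and MST1R. Each had 1 row, and all 10 had enough reads to be tested. The recovery group had 10 nM pladienolide B (PdB) for 16 h followed by 24 h of recovery, the PdB group had 10 nM PdB for 16 h, and the control group had the vehicle DMSO. Each group had 3 libraries of polyadenylated RNA. PdB is a macrolide that binds the SF3B1 complex, the part of the spliceosome that recognises the branch point of an intron. The labels do not give the time at which DMSO cells were collected, and do not state that libraries came from separate cultures, so p-values measure only the spread between these libraries, which may be technical.

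Receptor tyrosine kinases are single-pass membrane proteins whose outer part binds a ligand and whose inner part is an enzyme that phosphorylates tyrosine. Ligand binding brings receptor chains together, the chains phosphorylate each other, and adaptor proteins that dock on the phosphotyrosines carry the signal to the RAS and PI3K pathways. Triple-negative breast cancer cells lack amplified ERBB2 and are known for high EGFR, and mesenchymal lines of this type for high AXL.

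The enzyme part is recognised by its catalytic loop. The 24 bases that code for the 8 residues of this loop were read from the GENCODE 29 transcripts on GRCh38 and were found at 1 place in each of the 10 genes. They are shown for the 3 ErbB genes, for AXL and for the insulin receptor pair, because the report turns on these receptors and because ERBB3 differs from them at its key codon. Capitals mark 1 codon, which encodes the catalytic aspartate in 9 of the 10 genes and asparagine in ERBB3. ERBB3 is known as a receptor with little enzyme activity of its own that signals through its partners. The sequences lie at chr7:55191752-55191775 (EGFR, plus strand, exon 21), chr17:39725082-39725105 (ERBB2, plus strand, exon 21), chr12:56097818-56097841 (ERBB3, plus strand, exon 21), chr19:41253680-41253703 (AXL, plus strand, exon 17), chr15:98939300-98939323 (IGF1R, plus strand, exon 18) and chr19:7122651-7122674 (INSR, minus strand, exon 19), and are written 5′ to 3′ on the coding strand.
EGFR: caccgcGACctggcagccaggaac
ERBB2: cacaggGACttggccgctcggaac
ERBB3: catagaAACctggctgcccgaaac
AXL: caccggGACctggcggccaggaac
IGF1R: cacagaGACcttgctgcccggaat
INSR: catcggGACctggcagcgagaaac

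All 10 genes are protein coding and rich in introns. Their longest annotated transcripts, by exon bases, hold from 16 introns in ERBB2 to 27 introns in EGFR and ERBB3, with 20 in MET, IGF1R and INSR, 21 in FGFR1, 19 in AXL and DDR1 and 18 in MST1R. The ERBB2 transcript that gave the catalytic loop, in its exon 21, is another one with more introns. The spans of the 10 genes differ far more, from 16872 bp for MST1R on chromosome 3 to 315992 bp for IGF1R on chromosome 15. Whether strand was used in counting is not given in the sources used here, so reads of a gene and of an overlapping gene on the other strand cannot be told apart. Such a gene covered 7.41% of the exon bases of ERBB2, 6.78% of MST1R, 2.12% of FGFR1, 1.49% of EGFR and 1.3% of AXL. ERBB3 shared 0.343% of its exon bases with AC034102.2 on its own strand, which held 8592 to 13564 counts per library, against 47 to 347 for ERBB3. DDR1 shared 0.987% of its exon bases with MIR4640 on its own strand, which held 22 to 45 counts in recovery libraries, 3 to 14 in PdB libraries and 2 to 10 in DMSO libraries, against a mean of 2414 for DDR1. Gene counts measure neither the splice form of an mRNA nor the receptor protein.

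The libraries held 56389689 to 67047079 counts. The PdB library of replicate 3 stood apart from the other PdB libraries, with a chi-square per degree of freedom of 24.1 and 20.4 against them, beside 9.52 between those. The mesenchymal marker VIM averaged 1094 ± 13.5 CPM (read counts scaled to library size, with TMM factors) in recovery, 2162 ± 135 CPM in PdB and 2871 ± 51.9 CPM in DMSO libraries, and CD44 had 45477 to 72104 counts per library. The hormone receptor genes ESR1 and PGR had 0 and at most 4 counts, and the epithelial genes CDH1 and EPCAM 2 to 94 and 135 to 427 counts. Of 6 markers of leukocytes, endothelium and fibroblasts, CD3E, CDH5 and DCN had at most 8 counts in any library, PTPRC 2 to 33, PECAM1 4 to 71 and PDGFRB 65 to 654. PECAM1 was called lower under PdB against DMSO (log2 change -2.15 ± 0.51, adjusted p = 0.0011, edgeR). The 6 together came to 5.45 to 8.27 CPM in recovery libraries, 1.33 to 3.63 CPM in PdB libraries and 6.96 to 10.8 CPM in DMSO libraries, most of it PDGFRB, itself a receptor tyrosine kinase. The part of these markers in the results was not tested. In bulk RNA, fewer cells that express a receptor and less of its mRNA per cell cannot be told apart, and RNA per cell was not measured.

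Under PdB, 8 of the 10 receptors fell relative to DMSO. EGFR, ERBB3 and MST1R fell most, each by over 3-fold, and FGFR1, DDR1 and ERBB2 came next. MET and AXL fell less. IGF1R and INSR, the close pair that binds insulin and the insulin-like growth factors, were called higher by a small margin, a call that was lost when libraries were scaled by their totals alone. At recovery 7 receptors were lower than in DMSO, 6 of those that had fallen under PdB and INSR, and the receptors took different courses: EGFR, ERBB2, ERBB3, DDR1 and MST1R were higher than under PdB, AXL and INSR were lower than under PdB, and MET, FGFR1 and IGF1R did not pass the test.

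The counts behind this come from edgeR's quasi-likelihood test over all 20812 genes tested, with Benjamini-Hochberg adjusted p under 0.05. For PdB against DMSO, 2 receptors were called higher, where 32.0% of all genes were, and 8 lower, where 38.2% of all genes were. The median log2 change of the 10 was -1.13, beside -0.11 over all genes tested. For recovery against DMSO, 2 receptors were called higher, where 30.7% of all genes were, and 7 lower, where 30.5% of all genes were, and their median log2 change was -0.78, beside 0.026 over all genes. For recovery against PdB, 5 receptors were called higher, where 34.6% of all genes were, and 2 lower, where 31.5% of all genes were, with a median of 0.27 beside 0.062. The first pair of comparisons shares the DMSO libraries and the first and last share the PdB libraries, so they are not independent.

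Against DMSO, genes with as many introns as these receptors moved mostly in the same direction as most of them. For recovery against PdB most of these genes were called higher, as were 5 of the 10 receptors. Of the 1993 tested genes whose longest transcript has 16 to 27 introns, 14.9% were higher and 69.5% lower for PdB against DMSO, with a median log2 change of -0.80. For recovery against DMSO the shares were 24.0% higher and 50.3% lower with a median of -0.28, and for recovery against PdB 55.5% higher and 25.5% lower with a median of 0.47. Beside these genes, the receptors' own medians of -1.13, -0.78 and 0.27 were lower in each comparison, a difference that was not tested. The lower bound of 16 introns was set by the longest ERBB2 transcript, which has fewer introns than the ERBB2 transcript that gave the loop.

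**Figure D1:**
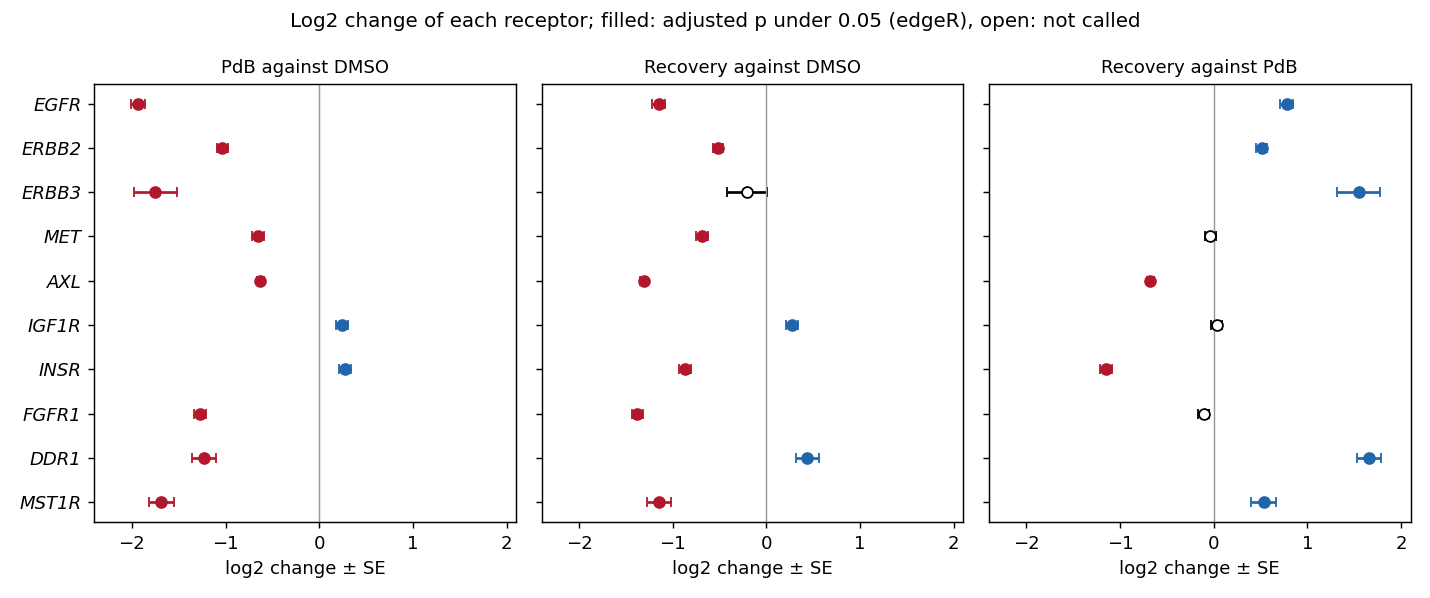
Log2 change ± SE of each of the 10 receptors (edgeR, all 9 libraries in the fit), with a panel for each of the 3 comparisons and filled points for adjusted p under 0.05 and open points for receptors not called. In the PdB panel 8 receptors lie left of 0, from -1.93 for EGFR to -0.63 for AXL, and IGF1R and INSR lie just right of it, a call lost when libraries were scaled by their totals alone. In the panel of recovery against PdB the receptors spread from -1.15 for INSR to 1.66 for DDR1.

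The ErbB family was followed through 3 of its members. EGFR (ENSG00000146648.20, chr7:55019021-55211628, plus strand), the receptor for EGF, TGF-alpha and amphiregulin, had 205, 211 and 228 CPM in recovery libraries, 115, 117 and 145 CPM in PdB libraries and 505, 458 and 470 CPM in DMSO libraries. The 3 groups did not overlap, and recovery lay between the low PdB libraries and the high DMSO libraries. EGFR was 3.81-fold lower in PdB than in DMSO libraries (log2 change -1.93 ± 0.075 SE, adjusted p = 7.0e-14, edgeR). This was the largest such estimate among the 10, beside -1.75 ± 0.23 for ERBB3, and the difference was not tested. At recovery it was 1.71-fold higher than under PdB (log2 change 0.78 ± 0.073, adjusted p = 2.4e-08, edgeR) and 2.22-fold lower than in DMSO (log2 change -1.15 ± 0.073, adjusted p = 1.5e-10, edgeR).

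ERBB2 (ENSG00000141736.14, chr17:39687914-39730426, plus strand), which binds no known ligand and serves as the preferred partner of the other ErbB receptors, had 74.5, 73.9 and 72.6 CPM in recovery libraries, 53.1, 53.0 and 49.1 CPM in PdB libraries and 102, 106 and 109.6 CPM in DMSO libraries. Its groups were as cleanly separated as those of EGFR and stood in the same order. The log2 change was -1.03 ± 0.054 for PdB against DMSO (adjusted p = 5.1e-12, edgeR), -0.52 ± 0.054 for recovery against DMSO (adjusted p = 1.0e-07, edgeR) and 0.51 ± 0.054 for recovery against PdB (adjusted p = 1.3e-07, edgeR). MIEN1 and PGAP3 overlap ERBB2 on the other strand. MIEN1 held 1310 to 1434 counts in recovery, 1691 to 1859 in PdB and 1450 to 1718 in DMSO libraries. PGAP3 held 133 to 430 counts per library. ERBB2 itself averaged 4726, 2846 and 7077 counts in these groups, and the part of the overlap in its values was not tested.

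ERBB3 (ENSG00000065361.17, chr12:56076799-56103505, plus strand), a receptor for neuregulins, was the lowest of the 10, with 4.72, 3.78 and 4.76 CPM in recovery libraries, 1.93, 1.69 and 0.903 CPM in PdB libraries and 5.05, 5.22 and 5.01 CPM in DMSO libraries. PdB libraries lay well below the others, and the PdB library of replicate 3 had only 47 counts. ERBB3 fell 3.37-fold under PdB against DMSO (log2 change -1.75 ± 0.23, adjusted p = 1.6e-06, edgeR) and was 2.92-fold higher at recovery than under PdB (log2 change 1.55 ± 0.23, adjusted p = 8.6e-06, edgeR). Recovery against DMSO gave -0.20 ± 0.21 (adjusted p = 0.42, edgeR), and although all 3 recovery libraries lay below all 3 DMSO libraries, this did not pass the test. ERBB3 was the 1 receptor of the 10 not called different from DMSO at recovery, which does not show that it had returned to the DMSO level.

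MET and MST1R are the receptors of hepatocyte growth factor and of macrophage-stimulating protein. MET (ENSG00000105976.16, chr7:116672390-116798386, plus strand) had 213, 209.6 and 198 CPM in recovery libraries, 218, 227 and 192 CPM in PdB libraries and 353, 338 and 311 CPM in DMSO libraries. Recovery and PdB libraries overlapped through the PdB library of replicate 3, the lowest of the PdB libraries, and both groups lay below every DMSO library. Without that library, recovery against PdB was -0.10 (adjusted p = 0.098, edgeR) and also not called. MET fell 1.57-fold under PdB (log2 change -0.65 ± 0.062, adjusted p = 2.2e-08, edgeR) and stood 1.61-fold below DMSO at recovery (log2 change -0.69 ± 0.062, adjusted p = 1.6e-08, edgeR). Recovery against PdB gave -0.038 ± 0.062 (adjusted p = 0.61, edgeR), a value whose sign turned without PdB replicate 2 (0.018), without recovery replicate 3 (0.0023) and with library totals (0.23).

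MST1R (ENSG00000164078.13, chr3:49887002-49903873, minus strand) had 9.25, 8.12 and 9.19 CPM in recovery libraries, 6.92, 4.64 and 6.82 CPM in PdB libraries and 20.1, 19.1 and 19.8 CPM in DMSO libraries. Every recovery library lay above every PdB library, and both groups lay far below DMSO. The fall under PdB was 3.21-fold (log2 change -1.68 ± 0.13, adjusted p = 1.6e-09, edgeR), and at recovery MST1R was still 2.22-fold lower than in DMSO (log2 change -1.15 ± 0.13, adjusted p = 3.1e-07, edgeR). The difference between recovery and PdB was smaller, at 1.45-fold (log2 change 0.53 ± 0.13, adjusted p = 0.0018, edgeR). Thus both receptors of this family stayed below DMSO, and of the pair only MST1R was called higher at recovery than under PdB. The difference between the 2 receptors was not tested.

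AXL (ENSG00000167601.12, chr19:41219203-41261766, plus strand), a receptor for GAS6 that is linked to the mesenchymal state and to drug tolerance in carcinoma cells, was by far the most abundant. It had 822, 807 and 809 CPM in recovery libraries, 1306, 1297 and 1304 CPM in PdB libraries and 2009, 2064 and 1964 CPM in DMSO libraries. Libraries of a group differed little, and the groups stood far apart, with recovery the lowest. AXL fell 1.545-fold under PdB (log2 change -0.63 ± 0.037, adjusted p = 2.9e-11, edgeR). At recovery it was 1.60-fold lower than under PdB (log2 change -0.68 ± 0.037, adjusted p = 1.2e-11, edgeR), which put it 2.48-fold below DMSO (log2 change -1.31 ± 0.038, adjusted p = 1.0e-14, edgeR). VIM stood in the same order of groups, with a log2 change of -1.39 ± 0.045 for recovery against DMSO (adjusted p = 3.4e-14, edgeR), and CD44 was also called lower there (-0.47 ± 0.039). CDH1 was called higher (2.03 ± 0.71, adjusted p = 0.018, edgeR) at a low level, 1.29 ± 0.131 CPM in recovery and 0.310 ± 0.343 CPM in DMSO libraries. The other epithelial gene, EPCAM, went the other way and was called lower (-1.13 ± 0.17, adjusted p = 1.5e-05, edgeR). It averaged 2.42 ± 0.223 CPM in recovery and 5.29 ± 0.799 CPM in DMSO libraries. The part of these markers in the AXL values was not tested.

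The insulin receptor family gave a different picture in each of its 2 members. IGF1R (ENSG00000140443.15, chr15:98648539-98964530, plus strand), the receptor of the insulin-like growth factors, had 59.6, 56.8 and 60.2 CPM in recovery libraries, 56.9, 57.9 and 58.2 CPM in PdB libraries and 51.8, 49.0 and 45.3 CPM in DMSO libraries. Recovery and PdB libraries overlapped and both lay above all DMSO libraries. The rise was 1.21-fold at recovery (log2 change 0.27 ± 0.061, adjusted p = 0.00072, edgeR) and 1.18-fold under PdB (log2 change 0.24 ± 0.061, adjusted p = 0.0017, edgeR). Scaled by library totals alone, the PdB value was 0.047 with adjusted p = 0.51 in edgeR. Recovery against PdB was not called, at 0.030 ± 0.061 (adjusted p = 0.68, edgeR).

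INSR (ENSG00000171105.14, chr19:7112255-7294034, minus strand), the insulin receptor, had 26.1, 27.9 and 29.2 CPM in recovery libraries, 63.4, 60.6 and 60.4 CPM in PdB libraries and 51.3, 49.9 and 51.0 CPM in DMSO libraries. No groups overlapped, with PdB the highest and recovery the lowest. INSR rose 1.21-fold under PdB (log2 change 0.28 ± 0.061, adjusted p = 0.00052, edgeR), a call that was lost when libraries were scaled by their totals alone (0.080, adjusted p = 0.25, edgeR). At recovery INSR was 2.22-fold lower than under PdB (log2 change -1.15 ± 0.062, adjusted p = 9.8e-12, edgeR) and 1.83-fold lower than in DMSO (log2 change -0.87 ± 0.062, adjusted p = 6.8e-10, edgeR). It was the only 1 of the 10 receptors called higher than DMSO under PdB and lower than DMSO at recovery.

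FGFR1 (ENSG00000077782.22, chr8:38400215-38468834, minus strand), a receptor of fibroblast growth factors, had 59.0, 56.8 and 63.8 CPM in recovery libraries, 65.2, 60.7 and 67.7 CPM in PdB libraries and 147, 156 and 164 CPM in DMSO libraries. Recovery and PdB libraries overlapped, and both lay well below every DMSO library. FGFR1 fell 2.41-fold under PdB (log2 change -1.27 ± 0.062, adjusted p = 1.5e-12, edgeR) and was 2.60-fold lower than DMSO at recovery (log2 change -1.38 ± 0.062, adjusted p = 1.5e-12, edgeR), the largest such estimate among the 10, beside -1.31 for AXL. Recovery against PdB gave -0.11 ± 0.062 (adjusted p = 0.13, edgeR), and its sign depended on the scaling: it was called lower with RLE (-0.16) and higher with library totals (0.16). LETM2, which overlaps FGFR1 on the other strand, held 1714 to 1970 counts in recovery libraries, 446 to 551 in PdB libraries and 1034 to 1154 in DMSO libraries, against a mean of 5935 counts of FGFR1, and its part in these values was not tested.

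DDR1 (ENSG00000204580.14, chr6:30876421-30900156, plus strand), a receptor that binds collagen rather than a growth factor, had 54.1, 54.4 and 57.2 CPM in recovery libraries, 13.7, 15.7 and 23.1 CPM in PdB libraries and 40.5, 37.9 and 44.2 CPM in DMSO libraries. The groups did not overlap, and here recovery was the highest. DDR1 fell 2.34-fold under PdB (log2 change -1.23 ± 0.13, adjusted p = 9.3e-08, edgeR) and was 3.16-fold higher at recovery than under PdB (log2 change 1.66 ± 0.13, adjusted p = 1.7e-09, edgeR). At recovery it stood 1.35-fold above DMSO (log2 change 0.43 ± 0.12, adjusted p = 0.0051, edgeR). Of the 8 receptors that fell under PdB, DDR1 was the only 1 called higher than DMSO at recovery.

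The PdB library of replicate 3 was the highest PdB library for EGFR and DDR1 and the lowest for ERBB3. Without it, the log2 change for PdB against DMSO was -2.05 for EGFR, -1.48 for DDR1 and -1.49 for ERBB3, and for recovery against PdB it was 0.89 for EGFR, 1.91 for DDR1 and 1.29 for ERBB3. The counts of receptors called were the same without it in all 3 comparisons.

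**Figure D2:**
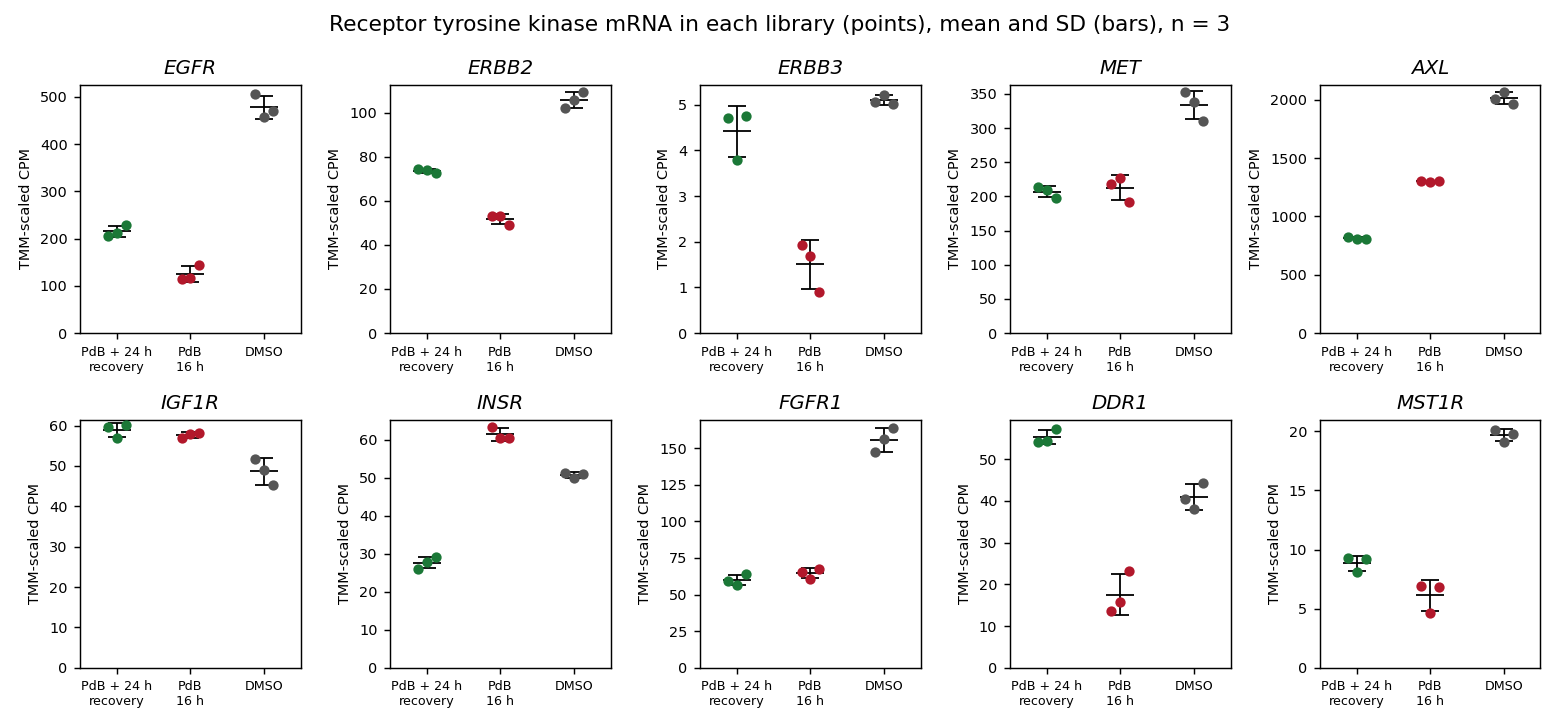
TMM-scaled CPM of each receptor in every library (points), with the group mean and SD (bars, n = 3), for recovery, PdB and DMSO from left to right and with each vertical axis starting at 0. EGFR, ERBB2 and MST1R are lowest in PdB and highest in DMSO, AXL is lowest in recovery and highest in DMSO, INSR is highest in PdB (60.4 to 63.4 CPM) and DDR1 is highest in recovery (54.1 to 57.2 CPM). The height of INSR and IGF1R in PdB over DMSO was not called when libraries were scaled by their totals alone.

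How libraries were scaled touches these values. The median log2 change of all genes for PdB against DMSO was -0.11 under TMM scaling, -0.014 under RLE, 0.039 under upper-quartile scaling and -0.31 for library totals alone. For recovery against PdB it was 0.062 under TMM, 0.011 under RLE, -0.012 under upper-quartile scaling and 0.33 for library totals. With library totals the calls for recovery against PdB over all genes were 8862 higher and 4876 lower, beside 7204 higher and 6563 lower with TMM. On that scale 8 of the 10 receptors were called higher at recovery than under PdB, in place of 5, with MET at 0.23, IGF1R at 0.30 and FGFR1 at 0.16. The falls of the 8 receptors under PdB held with each scaling.

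Levels of different genes can be set side by side only per length of gene, here as CPM per kilobase of exon. In DMSO libraries AXL had 390.4 ± 9.70 CPM per kilobase (SD, n = 3), far above the others. MET followed with 47.4 ± 3.01 and EGFR with 38.2 ± 1.96, then FGFR1 with 11.3 ± 0.597 and ERBB2 with 10.3 ± 0.354. INSR had 4.85 ± 0.0729, DDR1 4.48 ± 0.345, MST1R 3.75 ± 0.101, IGF1R 3.49 ± 0.236 and ERBB3 0.564 ± 0.0121 CPM per kilobase. The neighbours INSR and DDR1 overlapped in their libraries, as did MST1R and IGF1R, and their order is not shown. FGFR1 and ERBB2 did not overlap, by a narrow margin.

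The order was not the same in treated cells. In recovery libraries AXL had 158 ± 1.60, MET 29.4 ± 1.14, EGFR 17.2 ± 0.940 and ERBB2 7.14 ± 0.0929 CPM per kilobase, DDR1 came next with 6.06 ± 0.187, and FGFR1 (4.33 ± 0.256) and IGF1R (4.22 ± 0.130) overlapped. INSR followed with 2.65 ± 0.150, ahead of MST1R with 1.69 ± 0.122 and ERBB3 with 0.489 ± 0.0612. In PdB libraries AXL had 253 ± 0.879, MET 30.2 ± 2.60 and EGFR 10.0 ± 1.35 CPM per kilobase. INSR came next there with 5.88 ± 0.163, followed by ERBB2 with 5.01 ± 0.221 and FGFR1 with 4.66 ± 0.258, which overlapped, and by IGF1R with 4.14 ± 0.0496. DDR1 (1.92 ± 0.543), MST1R (1.17 ± 0.246) and ERBB3 (0.167 ± 0.0593) were lowest. Divided by the longest annotated transcript instead of all exon bases, ERBB2 came to 21.5, FGFR1 to 25.1 and DDR1 to 9.85 CPM per kilobase in DMSO, so that DDR1 stood ahead of INSR at 5.67. In recovery libraries FGFR1 then came to 9.63 and IGF1R to 4.81, which no longer lay close. In PdB libraries ERBB2 came to 10.5 and FGFR1 to 10.4, both above INSR at 6.87, so the place of INSR there depends on the length used.

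**Figure D3:**
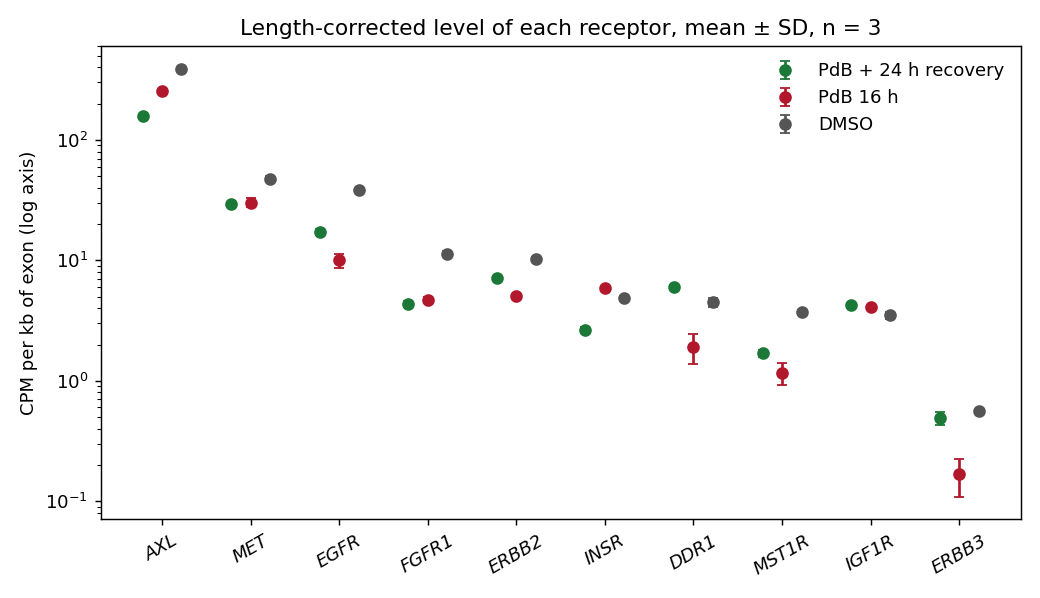
Level of each receptor as CPM per kilobase of exon (log axis), mean ± SD over 3 libraries, for recovery, PdB and DMSO from left to right within each gene. AXL lies alone at the top in every group (158, 253 and 390.4), ERBB3 at the bottom (0.489, 0.167 and 0.564), and the receptors between them change places between groups.

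The 10 receptors together took 0.165%, 0.162% and 0.167% of all counts in recovery libraries, 0.168%, 0.168% and 0.176% in PdB libraries and 0.339%, 0.335% and 0.329% in DMSO libraries. Both treated groups thus lay well below DMSO and close to each other, but with another mix. These shares are of library totals, without the TMM factors of 1.08 to 1.09 at recovery and 0.883 to 0.923 in PdB. The closeness of the treated groups belongs to that scale. With TMM factors AXL, which held most of the receptors' counts, averaged 812 CPM in recovery and 1302 CPM in PdB libraries. AXL made up 52.8% to 53.8% of the receptors' counts in recovery libraries, 68.4% to 68.7% in PdB libraries and 61.2% to 62.9% in DMSO libraries. EGFR made up 13.4% to 14.9% of them in recovery libraries, 6.05% to 7.60% in PdB libraries and 14% to 15.4% in DMSO libraries.

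Ratios within a library do not depend on scaling. The 3 ratios given here were chosen after the values were seen and have no test. Counts of EGFR were 2.76 to 3.14 times those of ERBB2 in recovery libraries, 2.16 to 2.95 times in PdB libraries and 4.29 to 4.94 times in DMSO libraries, so that the balance of this pair remained below that of DMSO at recovery. AXL counts were 3.55 to 4.0 times those of EGFR in recovery libraries, 9.0 to 11.4 times in PdB libraries and 3.98 to 4.51 times in DMSO libraries. The recovery and DMSO ranges of AXL to EGFR met, although both genes were below the DMSO level at recovery. The ratio of INSR to IGF1R counts was 0.437 to 0.491 in recovery libraries, 1.04 to 1.11 in PdB libraries and 0.990 to 1.13 in DMSO libraries, with recovery far below and the other groups overlapping. These ratios are of reads, which depend on gene length, and are not ratios of molecules.

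**Figure D4:**
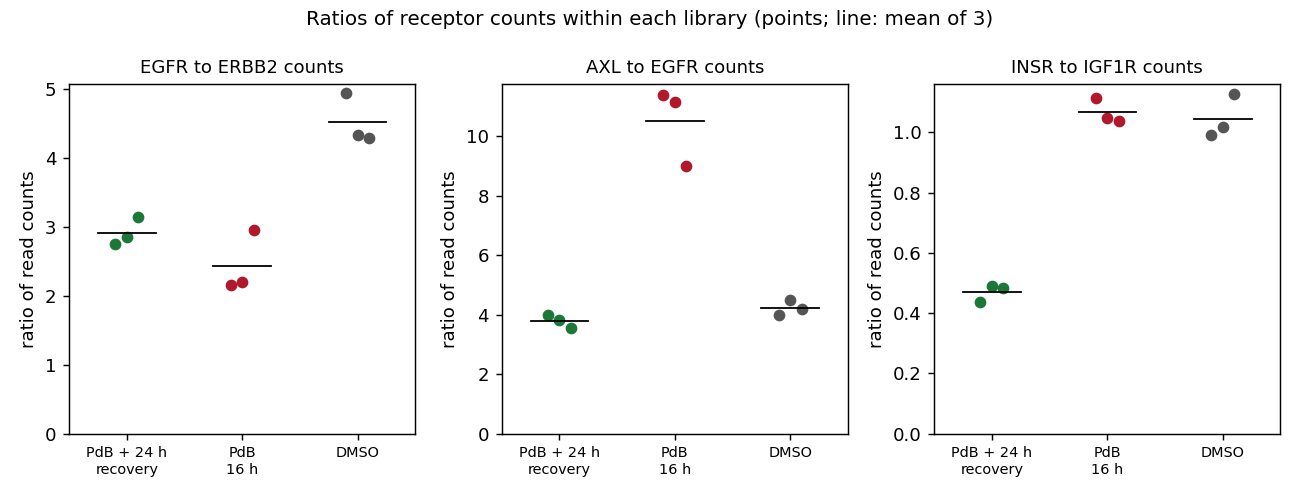
Ratio of read counts of EGFR to ERBB2, AXL to EGFR and INSR to IGF1R in each library (points) with the mean of 3 (line), for recovery, PdB and DMSO from left to right, with axes starting at 0. The ratio of EGFR to ERBB2 is highest in DMSO (4.29 to 4.94), that of AXL to EGFR in PdB (9.0 to 11.4), and that of INSR to IGF1R is lowest in recovery (0.437 to 0.491).

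The genes whose profile over the 9 libraries was most like that of EGFR, by root-mean-square distance between log2 CPM profiles each centred on its mean, were SPTAN1 (0.0584), SMARCA4 (0.0599) and DIP2A (0.0629). SPTAN1, a spectrin of the membrane skeleton, averaged 251 CPM in recovery, 142 CPM in PdB and 518 CPM in DMSO libraries. For AXL they were TBC1D1 (0.0512), ERO1A (0.0545) and STMP1 (0.0565), and TBC1D1 averaged 36.4 CPM in recovery, 59.2 CPM in PdB and 90.7 CPM in DMSO libraries. The search ran over 13721 genes and is a description with no test.

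Among the other receptor tyrosine kinases, 30 of 48 were tested. For PdB against DMSO 4 were higher and 17 lower, with a median log2 change of -0.82. For recovery against DMSO 10 were higher and 11 lower with a median of -0.23, and for recovery against PdB 16 were higher and 4 lower with a median of 0.67. Over all genes tested, 32.0% were higher and 38.2% lower for PdB against DMSO. These shares were 30.7% and 30.5% for recovery against DMSO, and 34.6% and 31.5% for recovery against PdB. The same shares stand beside the counts of the other lists below. AATK had no count in any PdB library and averaged 0.540 CPM in DMSO, at least 9.88-fold lower against a floor of 3 counts per library. With AATK at that bound the median was the same, -0.82.

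DDR2, the other collagen receptor, was higher under PdB than in DMSO and lower at recovery than under PdB, where DDR1 had the opposite signs. It averaged 5.53 ± 0.484 CPM in recovery, 27.7 ± 2.56 CPM in PdB and 2.59 ± 0.652 CPM in DMSO libraries, so that PdB stood far above both. Its log2 change was 3.42 ± 0.15 for PdB against DMSO (adjusted p = 4.3e-13, edgeR), 1.09 ± 0.15 for recovery against DMSO (adjusted p = 4.7e-06) and -2.32 ± 0.14 for recovery against PdB (adjusted p = 5.0e-11). FGFR4 (1.32 ± 0.19) and ROR1 (0.83 ± 0.067) also rose under PdB. FGFR4 was lower again at recovery than under PdB (-1.68 ± 0.19).

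The other AXL relatives fell too. MERTK averaged 9.17 ± 1.03 CPM in recovery, 4.27 ± 0.260 CPM in PdB and 20.4 ± 1.03 CPM in DMSO libraries, with a log2 change of -2.26 ± 0.12 for PdB against DMSO (adjusted p = 3.2e-12, edgeR) and -1.15 ± 0.11 for recovery against DMSO (adjusted p = 3.1e-08). TYRO3 averaged 12.9 ± 0.845 CPM in recovery, 13.4 ± 1.89 CPM in PdB and 29.6 ± 1.88 CPM in DMSO libraries, and its log2 change at recovery against DMSO was -1.19 ± 0.10 (adjusted p = 8.2e-09, edgeR). MERTK was called higher at recovery than under PdB, and AXL lower. KDR (-2.28 ± 0.26) and PDGFRB (-1.85 ± 0.28), receptors of vascular and platelet-derived growth factors, also fell under PdB, and PDGFRB was higher at recovery than under PdB (1.64 ± 0.28).

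Among the ephrin receptors, EPHB2 averaged 6.50 ± 1.55 CPM in recovery, 24.7 ± 2.87 CPM in PdB and 74.8 ± 4.85 CPM in DMSO libraries, a descent like that of AXL but steeper. Its log2 change was -3.52 ± 0.13 for recovery against DMSO (adjusted p = 1.2e-13, edgeR) and -1.92 ± 0.13 for recovery against PdB (adjusted p = 1.5e-10). EPHB3 (1.61 ± 0.17) and EPHA4 (1.35 ± 0.13) were the receptors named for their rise at recovery against DMSO beside DDR2. For recovery against PdB, FGFR3 rose by 2.47 ± 0.27 and STYK1, a receptor-like kinase, by 1.68 ± 0.16 on the log2 scale.

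Of 26 genes that encode ligands of the 10 receptors, 19 were tested. For PdB against DMSO 4 were higher and 10 lower with a median log2 change of -0.59, for recovery against DMSO 2 were higher and 9 lower with a median of -0.35, and for recovery against PdB 5 were higher and 7 lower with a median of 0.10. TGFA, an EGFR ligand, averaged 27.7 ± 3.33 CPM in recovery, 15.3 ± 1.20 CPM in PdB and 92.1 ± 6.59 CPM in DMSO libraries, and fell under PdB by 2.59 ± 0.090 on the log2 scale (adjusted p = 1.4e-14, edgeR). AREG, which encodes amphiregulin, averaged 33.2 ± 4.34 CPM in recovery, 9.08 ± 0.874 CPM in PdB and 42.3 ± 8.97 CPM in DMSO libraries, with -2.22 ± 0.13 for PdB against DMSO and 1.87 ± 0.13 for recovery against PdB. Of the other EGFR ligands, HBEGF was also called lower under PdB (-0.30 ± 0.052), EPGN was called higher (5.22 ± 0.60, adjusted p = 3.2e-07, edgeR), and EREG (0.099 ± 0.12), EGF (-0.086 ± 0.26) and BTC (-0.89 ± 0.60) were not called. EPGN was rare, at 2.89 ± 0.470 CPM in PdB and 0.0768 ± 0.0642 CPM in DMSO libraries.

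GAS6, the ligand of AXL, averaged 78.3 ± 0.397 CPM in recovery, 287 ± 13.5 CPM in PdB and 263 ± 11.3 CPM in DMSO libraries. It fell at recovery, by 1.75 ± 0.051 on the log2 scale against DMSO (adjusted p = 1.0e-14, edgeR) and by 1.88 ± 0.051 against PdB (adjusted p = 1.3e-15), and AXL was also lowest at recovery. Its value for PdB against DMSO was 0.13 ± 0.049 (adjusted p = 0.030, edgeR). This call was lost in 8 alternatives that kept the sign, including most that left out a library. Library totals also lost the call and turned the sign (-0.072, adjusted p = 0.15, edgeR). COL1A1, a collagen chain of the kind that DDR1 binds, averaged 23.9 ± 0.224 CPM in recovery, 2.69 ± 0.569 CPM in PdB and 8.63 ± 1.02 CPM in DMSO libraries, with 1.47 ± 0.13 for recovery against DMSO and 3.15 ± 0.14 for recovery against PdB. COL1A2 of the same list went the other way for recovery against PdB (-1.38 ± 0.37, adjusted p = 0.0034, edgeR). It was not called for recovery against DMSO (-0.58 ± 0.37). COL4A2, a basement membrane collagen chain, fell at recovery by 2.13 ± 0.092 against DMSO and by 1.54 ± 0.091 against PdB. COL4A1 of the same list was also lower at recovery than in DMSO (-1.18 ± 0.11). Against PdB it was not called (0.25 ± 0.12, adjusted p = 0.063, edgeR). No count of HGF, the ligand of MET, or of IGF1 was found in any library, which at this depth does not show that the genes were silent.

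All 20 genes of the list of adaptors and first effectors were tested, and they moved both ways. For PdB against DMSO 10 were higher and 9 lower with a median log2 change of 0.15, for recovery against DMSO 9 were higher and 5 lower with a median of 0.013, and for recovery against PdB 8 were higher and 10 lower with a median of -0.12. FRS2, the docking protein of FGF receptors, averaged 83.0 ± 7.10 CPM in recovery, 179 ± 12.3 CPM in PdB and 30.9 ± 1.35 CPM in DMSO libraries. It rose under PdB by 2.53 ± 0.071 (adjusted p = 9.9e-16, edgeR) and was higher than DMSO at recovery (1.42 ± 0.069), while FGFR1 was lower in both. CRKL, an adaptor of SH2 and SH3 domains, rose under PdB by 1.92 ± 0.053 and was lower at recovery than under PdB (-1.48 ± 0.053). IRS1, the docking protein of the insulin and IGF receptors, averaged 220.4 ± 5.0 CPM in recovery, 849 ± 42.0 CPM in PdB and 228 ± 4.31 CPM in DMSO libraries. Its log2 change for recovery against PdB was -1.95 ± 0.047 (adjusted p = 3.5e-16, edgeR).

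VAV2, a guanine nucleotide exchange factor, averaged 25.8 ± 1.37 CPM in recovery, 9.77 ± 0.109 CPM in PdB and 77.6 ± 5.12 CPM in DMSO libraries, the greatest fall of the list under PdB (-2.99 ± 0.076, adjusted p = 3.0e-16, edgeR), with -1.59 ± 0.070 for recovery against DMSO and 1.40 ± 0.074 for recovery against PdB. PLCG1, phospholipase C gamma, fell under PdB (-1.63 ± 0.058), and PTPN11, which encodes the phosphatase SHP2, was lower at recovery than in DMSO (-0.505 ± 0.056). GRB7, a gene near ERBB2 on chromosome 17, averaged 8.74 ± 0.754 CPM in recovery, 0.942 ± 0.298 CPM in PdB and 2.07 ± 0.407 CPM in DMSO libraries, with 2.08 ± 0.21 for recovery against DMSO and 3.21 ± 0.23 for recovery against PdB. ERBB2 by contrast was below DMSO at recovery.

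Of 25 genes that restrain these receptors or take them through endocytosis, 24 were tested. For PdB against DMSO 5 were higher and 15 lower with a median log2 change of -0.47, for recovery against DMSO 4 were higher and 11 lower with a median of -0.064, and for recovery against PdB 13 were higher and 9 lower with a median of 0.32. CBL and CBLB encode ubiquitin ligases that send active receptors to degradation. CBL averaged 123 ± 4.07 CPM in recovery, 36.9 ± 5.46 CPM in PdB and 124 ± 9.25 CPM in DMSO libraries, and was higher at recovery than under PdB (1.74 ± 0.083, adjusted p = 1.7e-12, edgeR). CBLB averaged 32.1 ± 0.961 CPM in recovery, 17.2 ± 3.0 CPM in PdB and 8.23 ± 0.607 CPM in DMSO libraries, and rose in both against DMSO, by 1.96 ± 0.11 at recovery and by 1.06 ± 0.11 under PdB.

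STAM and STAM2 belong to the complex that sorts ubiquitinated receptors on endosomes. STAM2 averaged 30.1 ± 1.93 CPM in recovery, 5.15 ± 0.752 CPM in PdB and 28.9 ± 0.0632 CPM in DMSO libraries, with -2.49 ± 0.10 for PdB against DMSO and 2.55 ± 0.10 for recovery against PdB. STAM was higher than DMSO at recovery (1.14 ± 0.059). EPS15, an endocytic adaptor first described as an EGFR substrate, fell under PdB (-1.79 ± 0.083). LRIG3, a relative of the ErbB restrainer LRIG1, rose under PdB (1.80 ± 0.12) and was lower at recovery than under PdB (-2.28 ± 0.12). Of the receptor phosphatases, PTPRF fell at recovery against DMSO (-1.65 ± 0.050) and against PdB (-1.73 ± 0.050), and PTPRJ against DMSO (-1.38 ± 0.079).

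**Figure D5:**
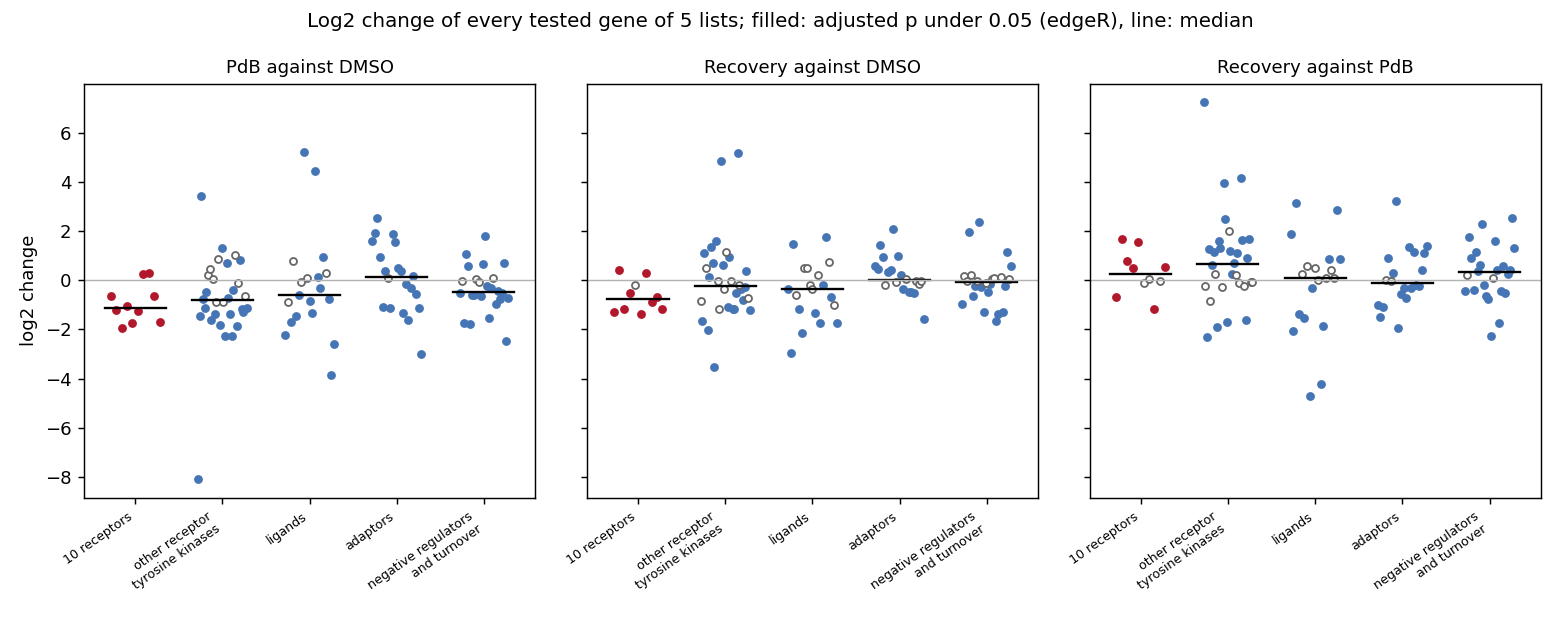
Log2 change of every tested gene of the 5 lists, with a panel for each of the 3 comparisons, filled points for adjusted p under 0.05 (edgeR), open points for genes not called and a line at the median. The 10 receptors have the lowest median in the first and second panels (-1.13 and -0.78), while adaptors lie on both sides of 0. The lowest point of the first panel is AATK, which had no count in PdB and whose fitted value there depends on the prior count.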

How the data were processed

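Polyadenylated RNA was measured in 9 libraries. For 60708 genes the authors deposited raw whole-number read counts. The tools featureCounts 2.0.3, STAR 2.7.9a, fastp 0.23.2, DESeq2 1.30.0 and Picard and the build hg38 are named per the submitters' processing notes. Roles, annotation release and strand use were not given in the sources used here. Coordinates, exon lengths and introns are those of GENCODE 29.

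Genes passing filterByExpr (20812) were scaled by TMM (factors 1.08 to 1.09 at recovery, 0.883 to 0.923 in PdB, 1.02 to 1.03 in DMSO) and tested two-sided with edgeR 4.0.16 (quasi-likelihood, R 4.3.3), all 9 libraries in 1 fit, Benjamini-Hochberg adjustment at 0.05 over all genes. The SE is the log2 change over the square root of F. Within groups, chi-square per degree of freedom between libraries was 4.87 to 24.1, so none was taken for a second deposit. The code was tested on simulated data. The members and lists were chosen with earlier results of these data known. Genes named outside the 10 were, per list and comparison, the 2 greatest rises and falls (3 for other receptors) with a mean of at least 100 counts and no overlap of groups. One marker gene is not reported here. AATK, ERBB4, PDGFRA, HGF, IGF1, HBEGF, EPGN, EREG, EGF, BTC, COL1A2 and COL4A1 were named after their values were seen. Alternatives were other scalings, filters and thresholds, DESeq2 1.42.0, only the 6 libraries compared, a replicate block and each library left out. Figures used matplotlib 3.10.9.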

Additional observations from a re-analysis of the deposited data

How the results depend on the processing

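Over all alternatives, 525 log2 changes of the 10 receptors kept their direction and call, 5 gained a call in the same direction, 2 lost one and 8 changed sign. Of the 8, MET and FGFR1 with library totals also gained a call. The 2 lost calls were IGF1R (0.047) and INSR (0.080) for PdB against DMSO with library totals, which left 0 receptors called higher there, and 8 were called higher for recovery against PdB, in place of 5. All 8 sign changes were in recovery against PdB, among receptors not called. MET was 0.23 with library totals (adjusted p = 0.0015, edgeR), 0.018 without PdB replicate 2 and 0.0023 without recovery replicate 3, in a range of -0.10 to 0.018 over the libraries left out. IGF1R was -0.021 with RLE, -0.043 with upper-quartile factors, -0.053 with a mean of at least 50 counts and -0.020 with DESeq2, and 0.30 with library totals. FGFR1 was 0.16 with library totals (adjusted p = 0.040, edgeR), and was called lower with RLE (-0.16), upper-quartile factors (-0.18), a mean of at least 50 counts (-0.19) and DESeq2 (-0.16). The cause was not tested.

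Of the counts over other lists, 425 stayed within 1.5 times and 7 moved. Ligands higher for PdB against DMSO were 2 in place of 4 with library totals, without DMSO replicate 2 and at adjusted p of 0.01. Negative regulators higher for recovery against DMSO were 9 in place of 4 with upper-quartile factors. With library totals, recovery against PdB gave 10 ligands higher in place of 5, 6 adaptors lower in place of 10 and 5 negative regulators lower in place of 9. Of the other named genes, only GAS6 for PdB against DMSO changed, to -0.072 with library totals and with a range of 0.079 to 0.16 over the libraries left out.

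Same-numbered libraries did not deviate together (correlations of -0.0032 to 0.048), so the numbers were not taken as pairs. With a replicate block the counts of receptors called were the same, 2 higher and 8 lower for PdB against DMSO, 2 higher and 7 lower for recovery against DMSO, and 5 higher and 2 lower for recovery against PdB. With 3 libraries a group, depth limits ERBB3 most, at 47 counts in 1 PdB library.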
